A study of Danio rerio with 39 samples.

Results

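The exposure effect that 4 dose rates of gamma ionising radiation (IR) share was examined in whole zebrafish embryos at the shield stage, by comparing all 19 exposed libraries with all 20 control libraries and with the irradiation batch as a covariate. All 39 libraries examined here were members of this comparison, and no measured value chose them. The study also used a higher dose rate, which is not covered here, so that the highest dose rate below means 5 mGy/h. According to the study, every library was made from a pool of entire embryos of the AB wild-type strain. The labels name no transgene or mutation. Embryos were exposed continuously from early cleavage until the shield stage, and controls of the same batch received no irradiation. Batch I14 held 3 libraries exposed at 0.005 mGy/h and 4 controls. Batch I13 held 4 libraries exposed at 0.05 mGy/h and 4 controls. Batch I32 held 6 libraries exposed at 0.5 mGy/h and 6 controls, and batch I30 held 6 libraries exposed at 5 mGy/h and 6 controls. Each dose rate was thus run in a batch of its own, so that dose rate and batch cannot be told apart and only the effect shared over the batches is described.

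At the shield stage the embryo has begun gastrulation. Nodal, Bmp, Wnt and Fgf signals and retinoic acid assign cells to the germ layers and to the body axes, and fibronectin and laminin matrices form between the moving cell sheets. Beneath the embryo, the yolk syncytial layer takes up yolk lipid and exports it as lipoprotein particles, for which it expresses apolipoprotein genes. IR breaks DNA, and cells answer breaks with repair, arrest of the cell cycle or apoptosis.

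The total count on genes ranged from 9845688 to 57169053 per library, with a median of 25507778. In batch I30 the exposed libraries were deeper, between 20896629 and 45879001 counts, than the controls, between 9845688 and 25507778. With all libraries thinned to the lowest total 70 genes were higher and 47 lower in the comparison below. Only 83 of the 115 genes called there without thinning were among them. Between 14.82% and 18.12% of the read pairs mapped to several places in 38 libraries, and 35.72% did in exposed replicate 3 of I13. The stage label was compared with markers. The mesoderm gene *tbxta*, the organizer gene *chrd* and the endoderm gene *sox32* were expressed in all libraries, at least at 493, 255 and 120 counts per 1e+06 counts (CPM), respectively. The markers of later stages in this check were low but not all absent. The lens crystallin gene *crygm2d1* was at 0 in 38 libraries, the neuronal genes *neurod1* and *elavl3* in 37 and 5, the hatching enzyme gene *he1.1* in 29, the globin gene *hbae3* in 19 and the insulin gene *ins* in 2. The muscle myosin gene *myhz2* was counted in all libraries, with a median of 1.07 CPM. *LCP1*, which was not part of this check but is in the list of later-stage markers used below, was not low. It was at 371 CPM or more in every library. The organizer gene *gsc* was low, with a median of 2.17 CPM and 0 in 1 library. Gene symbols are spelled as in the table of names that was matched to the Ensembl identifiers, so that many are in capitals.

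The exposure effect shared by the batches was small and was spread over genes of many functions. Of 17255 genes tested, 73 were higher in exposed embryos (0.423%) and 42 were lower (0.243%) when an adjusted p below 0.05 was required (quasi-likelihood test of edgeR, adjusted by Benjamini-Hochberg over all genes), which makes 115 genes in all (0.666%). At an unadjusted p under 0.05, 1434 genes were higher (8.31%) and 1208 lower (15.3% together). Only *CD36*, a scavenger receptor that binds fatty acids, also had a fold change of at least 1.5 at an adjusted p under 0.01, the threshold that the study used for single dose rates (0.00580% of the genes tested). Of the 115 genes, 88 had the same direction within each of the 4 batches, 50 of them higher and 38 lower, and these are called common genes below. This sign alone was shared by 2244 of the 13392 genes tested in all batches (16.8%), and the direction of a called gene is tied to the test that called it, so that the 88 are a description. Among the others, 22 had the opposite sign in at least 1 batch and 5 were too low to be tested in every batch. The log2 fold change of the common genes lay between 0.185 and 0.59 in absolute value, with a median of 0.283.

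The common genes were not equally changed in the 4 batches. The 50 higher genes had a median log2 fold change of 0.31, 0.10, 0.23 and 0.41 from the lowest to the highest dose rate. For the 38 lower genes the medians were -0.37, -0.14, -0.25 and -0.35 in the same order. Within I14 alone no gene passed (edgeR, although 1461 genes or 10.5% had an unadjusted p under 0.05 and DESeq2 called 136). Within I13 a single gene, *PLOD1*, passed (0.00632%, and 1.37% of genes had an unadjusted p under 0.05), within I32 1120 genes did (7.51%) and within I30 1366 (9.10%). Of the common genes, 14 were among those of I32, 54 among those of I30 and 0 among those of the other batches. The change was largest at 5 mGy/h for 44 of the 88 genes and at 0.005 mGy/h for 30, and it was smallest at 0.05 mGy/h for 62. Exposed and control libraries were without overlap within exactly 1 batch for 51 of the 88 genes (14.5% of all genes tested), within 2 batches for 12 (0.510%), and within 3 batches for none (0.00580%). Between 15 and 19 of the 19 exposed libraries, with a median of 17, lay on the side of the change relative to the control mean of their batch, which for these counts of libraries is the mean of log2 CPM.

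**Figure D1:**
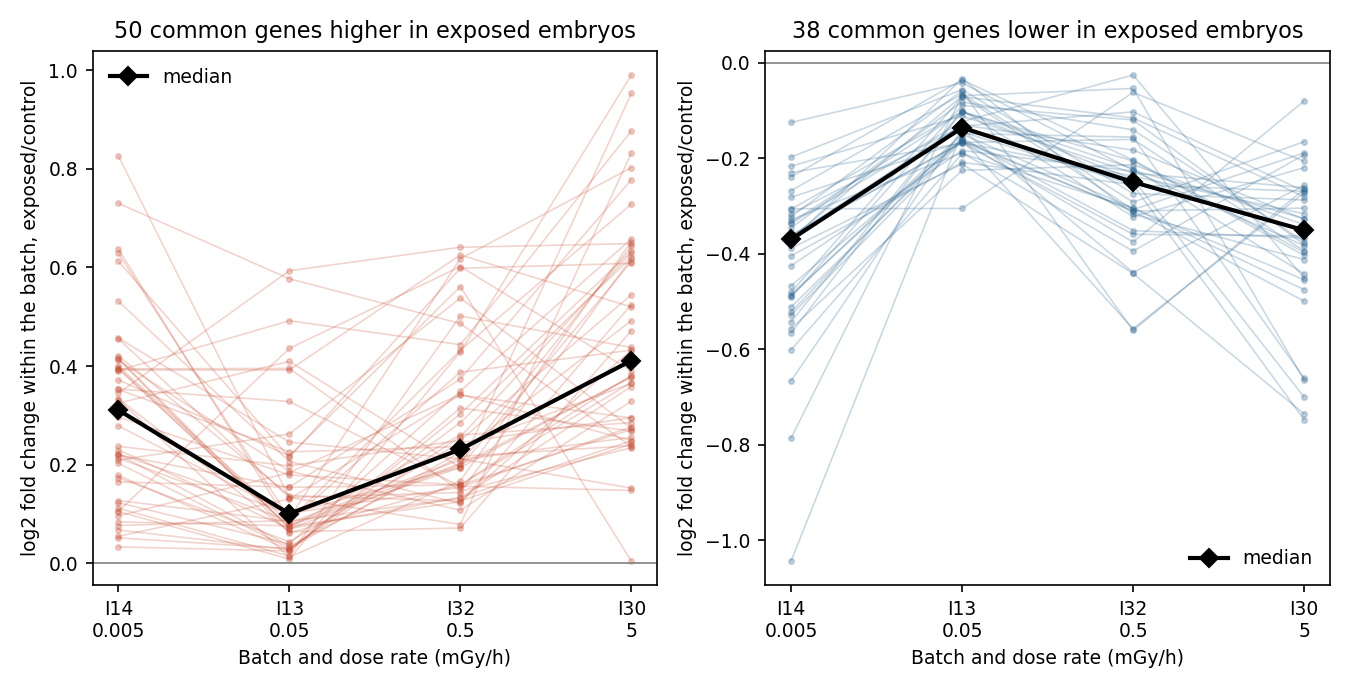
Within-batch log2 fold change (exposed over control) of the 50 common genes that were higher (left) and the 38 that were lower (right) in exposed embryos, with 1 line per gene and the median as a black diamond. Batches are ordered by the dose rate of their exposed libraries in mGy/h. All lines lie on 1 side of 0, as the definition of a common gene requires, and they lie closest to 0 in I13 (0.05 mGy/h), with medians of 0.10 and -0.14.

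No call outlived the omission of batch I30. Without I30, 0 of the 115 genes passed. All 88 common genes kept their direction there, which their definition all but fixes, and 103 of the 115 had an unadjusted p under 0.05. As the 115 genes were called with these same libraries, neither number is a separate result. Without I14, I32 or I13, respectively 29, 49 and 104 of the 115 genes remained called. Omission of 1 library gave between 26 genes (without I30 control replicate 4) and 371 genes (without I32 exposed replicate 3), and 23 of the 115 genes were called in each of these 39 fits. Over the 31 of these libraries that the study kept after it removed 8 by hierarchical clustering, 1164 genes were higher (6.70%) and 985 lower (5.67%), with 113 of the 115 genes among them. The removed libraries are I13 controls 3 and 4, I32 exposed 1 and 3, I30 controls 1 and 2 and I30 exposed 2 and 6. As they were chosen by the expression values themselves, counts over the 31 libraries are given beside those over all 39 and do not replace them.

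**Figure D2:**
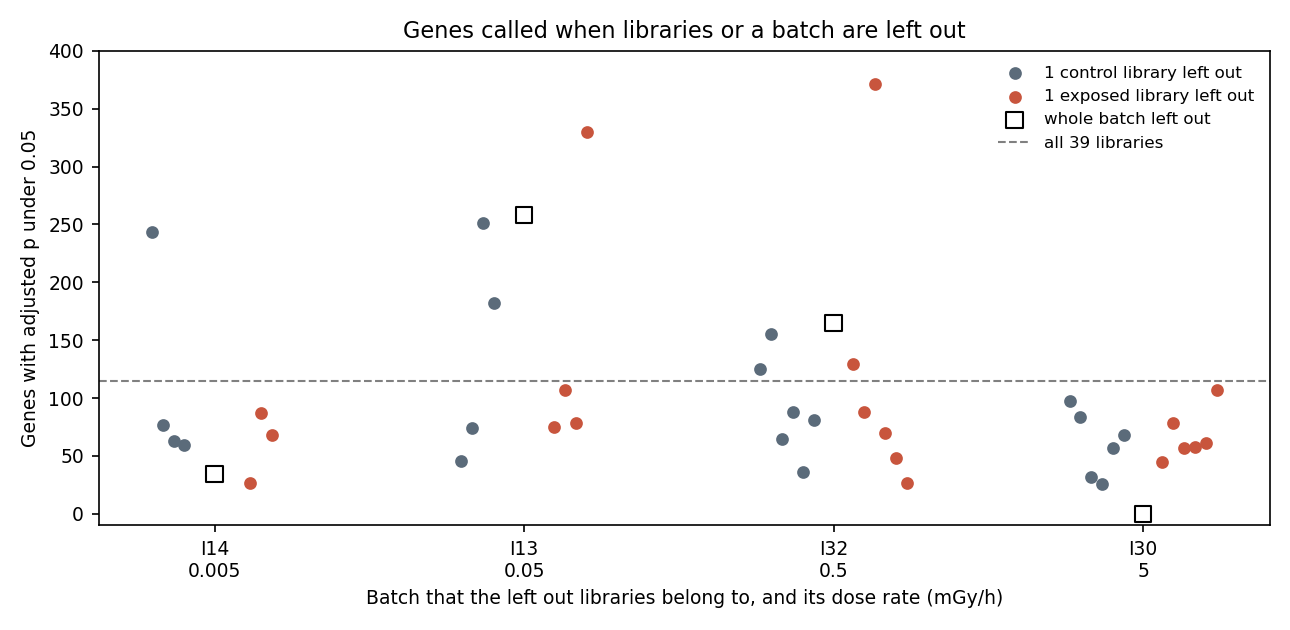
Number of genes with an adjusted p under 0.05 in the fit of exposure with batch as a covariate when 1 control library (grey), 1 exposed library (red) or a whole batch (open square) is left out, by the batch of what was left out. The dashed line marks the 115 genes of all 39 libraries. The counts run from 26 to 371 without 1 library and fall to 0 without batch I30.

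The smallest p was that of *CYP26A1*, which encodes the enzyme that breaks down retinoic acid. In I14 its level was 111, 91.1, 94.5 and 87.3 CPM in the 4 controls and 119, 105 and 120 CPM in the exposed libraries. In I13 it was 107, 104, 103 and 107 CPM in controls and 129, 116, 131 and 107 CPM in exposed libraries. The I32 controls ranged from 77.5 to 93.9 CPM (median 83.5) and the exposed libraries from 83 to 114 CPM (median 97.7). In I30 the controls ranged from 59.4 to 67.5 CPM (median 63.9) and the exposed libraries from 86.8 to 102 CPM (median 97.7). Exposed libraries were thus higher than the control mean of their batch in 18 of 19 cases, and the groups were clearly apart only in I30. The log2 fold change was 0.34 ± 0.05 (SE, adjusted p = 0.000167), and it was 0.24, 0.20, 0.25 and 0.54 from the lowest to the highest dose rate. Of the other genes of retinoic acid metabolism, transport and reception, none passed over all libraries, so that 1 of 20 tested genes was called (5%, background 0.666%) and their median log2 fold change was 0.056 against 0.0059 for all genes. With the 31 libraries 4 genes of the list were higher (background 6.70%) and 1 lower (background 5.67%). Among the higher were the synthesis enzyme *ALDH1A2* (log2 fold change 0.20, but 0.10 ± 0.06 over all 39) and the retinal reductase *DHRS3* (0.39, 0.26 ± 0.08 over all 39). The receptor gene *rarab* was at 0.03 ± 0.07 and the binding protein gene *CRABP2* (ENSDARG00000030449) at 0.07 ± 0.08 over all libraries.

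*CD36* had the second largest fold change of the common genes. It measured 4.79, 3.99, 2.91 and 3.51 CPM in I14 controls and 6.47, 3.98 and 4.74 CPM in I14 exposed libraries. In I13 the controls were at 2.22, 2.61, 2.35 and 2.11 CPM and the exposed libraries at 3.8, 3.97, 2.63 and 2.61 CPM. I32 controls ranged from 3.01 to 4.63 CPM (median 3.55) and I32 exposed libraries from 3.51 to 6.61 CPM (median 5.01). I30 controls ranged from 1.64 to 3.28 CPM (median 2.61) and I30 exposed libraries from 4.13 to 5.6 CPM (median 4.99). The groups overlapped in I14 and I32, touched in I13 and were separated in I30. The log2 fold change of *CD36* was 0.59 ± 0.09 (adjusted p = 0.00158), with 18 of 19 exposed libraries above their control mean.

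*FABP1* (ENSDARG00000059227, 1 of a pair of genes with this symbol), a fatty acid binding protein of the liver type, was higher by 0.57 ± 0.10 (adjusted p = 0.0074). Its level was 11.2, 8.02, 5.32 and 4.94 CPM in I14 controls against 11.1, 10.5 and 13.1 CPM in exposed libraries, and 13.1, 12.9, 15.9 and 20.5 CPM in I13 controls against 15.7, 20.2, 17.6 and 13.1 CPM. It ranged from 9.38 to 14.7 CPM (median 11) in I32 controls and from 12.8 to 25.3 CPM (median 16.9) in exposed libraries. In I30 it was between 7.16 and 11.5 CPM (median 9.78) in controls and between 13 and 24.1 CPM (median 16.7) in exposed libraries. The separation was again complete only in I30, and I13 showed nearly none, with a within-batch log2 fold change of 0.09.

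**Figure D3:**
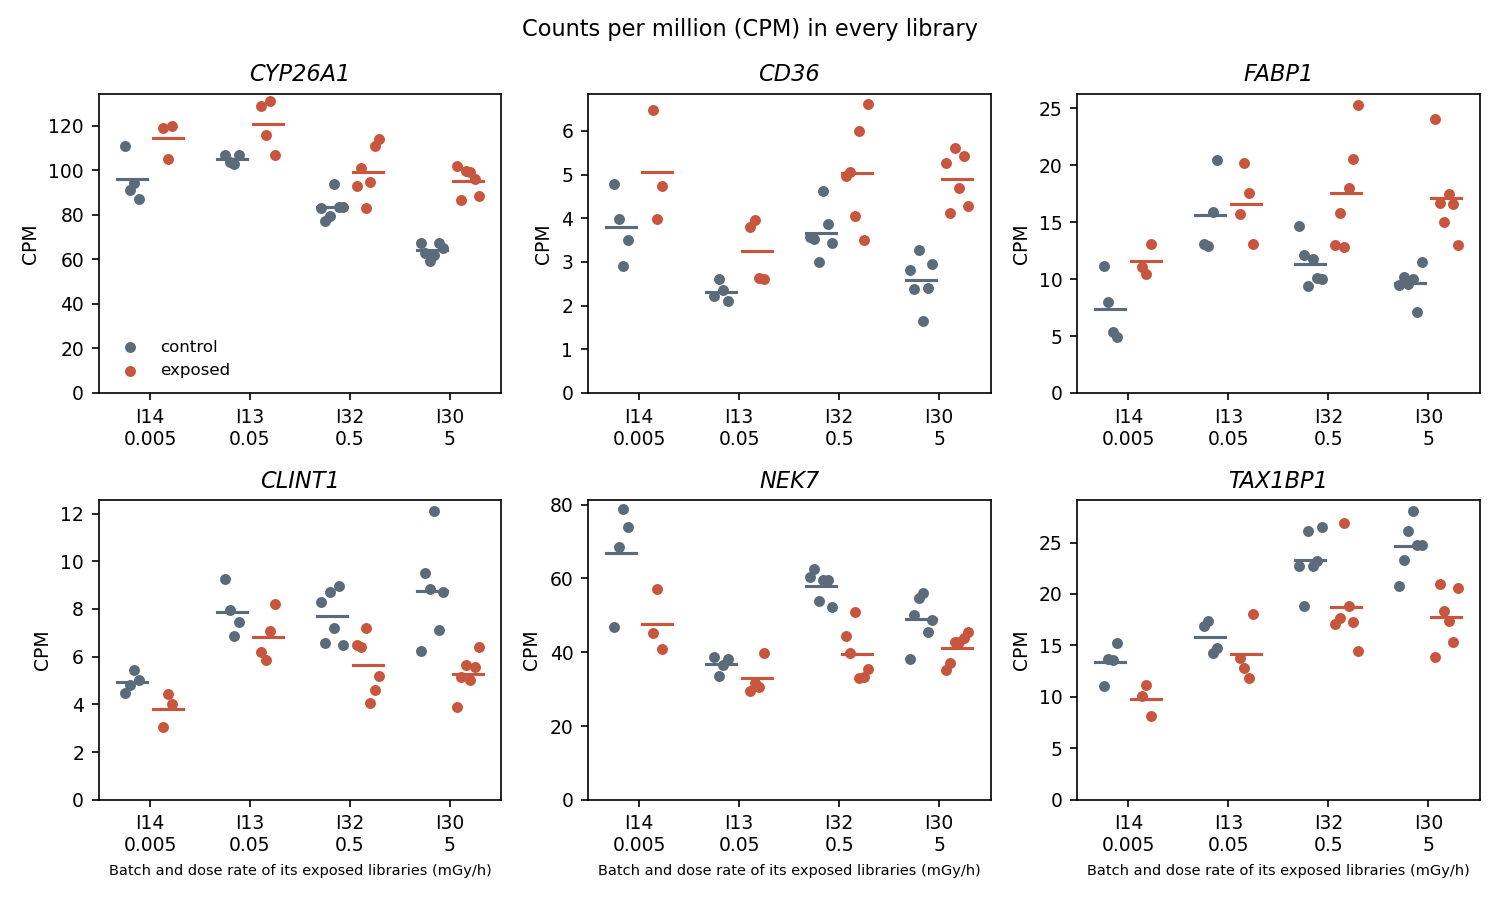
Level in CPM of 3 common genes that were higher (top row) and 3 that were lower (bottom row) in exposed embryos, in each of the 39 libraries, by batch and the dose rate of its exposed libraries in mGy/h. Points are libraries (grey, control, and red, exposed) and bars are group means. *CLINT1* is ENSDARG00000089914, *FABP1* is ENSDARG00000059227 and *TAX1BP1* is ENSDARG00000098288. Exposed and control libraries are apart for *CYP26A1*, *CD36* and *FABP1* in I30 and overlap in most other batches.

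Other genes of lipid handling were among the called genes, a grouping made after the values were seen. *tm6sf2a*, whose human counterpart acts in the secretion of triglyceride-rich lipoproteins, rose by 0.47 ± 0.10 (adjusted p = 0.0184), from 0.01 within I13 to 0.99 within I30. The phospholipid transfer protein gene *PLTP* was at 0.32 ± 0.08 (adjusted p = 0.036) and was above the control mean of log2 CPM in 19 of 19 exposed libraries, in I32 exposed replicate 3 (6.16 CPM) barely so. *GPAT4*, an acyltransferase of glycerolipid synthesis, was higher by 0.22 ± 0.05 (adjusted p = 0.0249).

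Genes of the yolk syncytial layer were the list with the largest share of called genes. Of 20 genes tested 3 were higher (15%, background 0.423%) and none lower, 15 had a positive log2 fold change and the median was 0.18 against 0.0059 for all genes. The values ran from -0.43 to 0.48. As all lists were chosen with earlier results of these data known, shares of called genes in them are descriptions. For the list counts below, the background of DESeq2 was 223 genes higher and 227 lower of 10217 with an adjusted p. At an unadjusted p under 0.05 the background was 8.31% higher and 15.3% in either direction. The called members of the yolk syncytial layer list were the apolipoprotein genes *apoa1b* (0.47 ± 0.09, adjusted p = 0.0074) and *apoeb* (0.19 ± 0.04, adjusted p = 0.0358) and the transferrin gene *tfa* (0.35 ± 0.08, adjusted p = 0.0306), which encodes an iron carrier. *apoa1b* was between 77.2 and 102 CPM in I32 controls (median 82.4) and between 102 and 180 CPM in exposed libraries (median 134), and between 61.1 and 93.3 CPM in I30 controls (median 80.5) against 97.3 to 157 CPM (median 128). In I13, however, it was 76.5, 79.2, 121 and 106 CPM in controls and 103, 97.1, 94.6 and 70.6 CPM in exposed libraries, so that its sign was reversed there (-0.07) and it is not a common gene. The members *apobb.1* (0.48 ± 0.14, adjusted p = 0.0855) and *apoa1a* (0.41 ± 0.11, adjusted p = 0.0744), which also encode apolipoproteins, did not pass. The summed level of the list was above the mean of the batch controls in 17 of 19 exposed libraries, against 13 of 19 for the sum of all genes. A large part of this sum (median of 7017 CPM in controls) was the called gene *apoeb*, at 3910 CPM or more in every library, so that the sum is no separate result. Over the 31 libraries 10 of the 20 genes of the list were higher (background 6.70%). In libraries of whole embryos a larger yolk syncytial layer and more RNA per layer cannot be told apart, and the same holds for every cell type below.

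Extracellular matrix genes were called in the same direction. Of 28 genes of matrix and adhesion tested 4 were higher (14.3%, background 0.423%) and none lower, with a median of 0.11. The median of the list differed between batches, at -0.19, 0.01, 0.35 and 0.12 from the lowest to the highest dose rate, and was thus negative at 0.005 mGy/h. These were the laminin chains *LAMB1* (0.32 ± 0.07, adjusted p = 0.0177) and *LAMA1* (0.33 ± 0.07, adjusted p = 0.0262) and both genes named *FN1*, which encode fibronectin (ENSDARG00000019815, 0.37 ± 0.08, adjusted p = 0.0177, and ENSDARG00000006526, 0.40 ± 0.09, adjusted p = 0.0306). *LAMB1* measured 615, 591, 507 and 529 CPM in I14 controls and 685, 598 and 651 CPM in exposed libraries, and 470, 439, 544 and 480 CPM in I13 controls and 513, 471, 499 and 435 CPM in exposed libraries. It ranged from 263 to 429 CPM (median 299) in I32 controls against 311 to 508 CPM (median 439), and from 325 to 417 CPM (median 367) in I30 controls against 460 to 593 CPM (median 541). The groups were separated in I30 only and did not differ in I13 beyond their spread (-0.01 ± 0.11). Outside the list, the basement membrane gene *NID2* (0.34 ± 0.08), the fibrillin *FBN3* (0.43 ± 0.10), the fibulin *EFEMP2* (0.29 ± 0.07) and the hemicentin *HMCN1* (0.52 ± 0.12) were also higher, a selection made after the values were seen. Of all these matrix genes only *LAMA1*, *HMCN1* and *FN1* (ENSDARG00000006526) had the same sign in all 4 batches. The collagen gene *COL4A1* was at -0.32 ± 0.18 (adjusted p = 0.385) and did not pass.

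**Figure D4:**
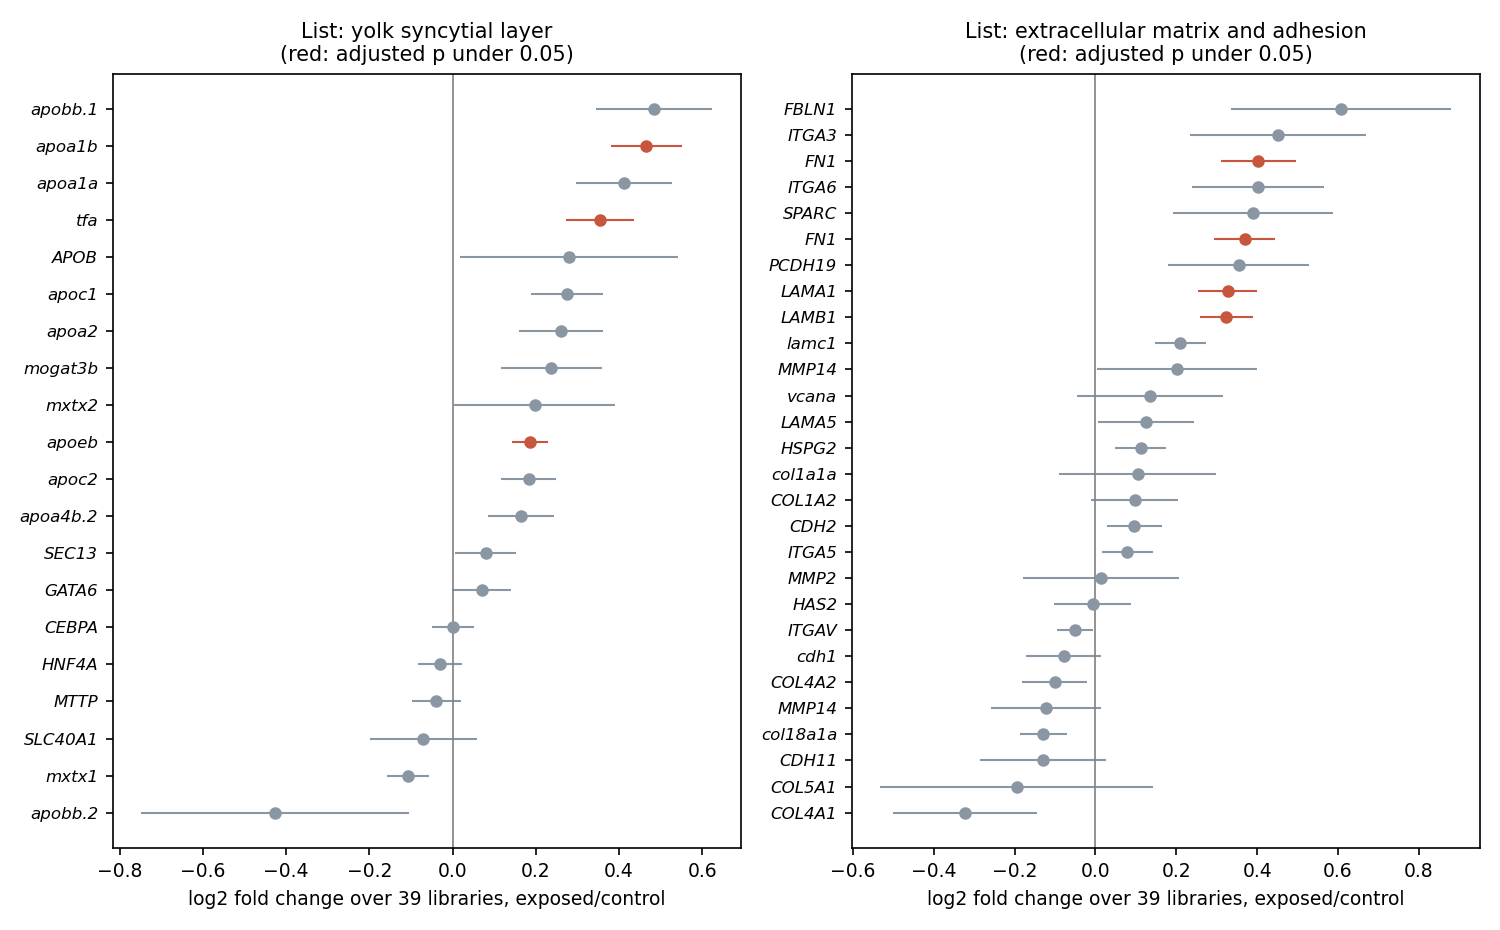
Log2 fold change over 39 libraries (exposed over control, batch as a covariate) of the 20 tested genes of the yolk syncytial layer list (left) and the 28 of the extracellular matrix and adhesion list (right), with bars of 1 SE. Red points have an adjusted p under 0.05 over all genes tested. The 3 and 4 called genes are all positive, and several genes with larger estimates have wider bars and did not pass.

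Among genes of mesoderm, *tbx6* and *mespbb* were higher. *tbx6*, a T-box factor of paraxial mesoderm, measured 5.75, 6.55, 7.09 and 6.11 CPM in I14 controls and 10.2, 9.41 and 4.74 CPM in exposed libraries, and 3.4, 3.24, 3.95 and 4.44 CPM in I13 controls against 3.52, 4.43, 5.27 and 6.86 CPM. Its range was 3.97 to 5.89 CPM (median 4.28) in I32 controls and 4.21 to 6.51 CPM (median 5.16) in exposed libraries, and 3.19 to 4.56 CPM (median 3.49) in I30 controls and 5.53 to 9.41 CPM (median 7.26) in exposed libraries. The log2 fold change was 0.50 ± 0.10 (adjusted p = 0.0184), with complete separation in I30 only. *mespbb*, a factor of somite boundaries, lay between 0.57 and 2.05 CPM and was higher by 0.49 ± 0.12 (adjusted p = 0.0471). It lay above the control mean in 19 of 19 exposed libraries, but the call was kept in only 11 of the 39 fits without 1 library. In all, 2 of 29 genes of the mesoderm list were higher (6.9%, background 0.423%) and none lower, with a median of 0.14. With the 31 libraries 7 were higher (background 6.70%), among them the apelin receptor genes *aplnra* (0.18) and *aplnrb* (0.34).

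The Nodal list moved in both directions. *mixl1*, a paired-type homeobox gene that Nodal activates in mesendoderm, was lower by 0.37 on the log2 scale (log2 fold change -0.37 ± 0.08, adjusted p = 0.0231). It was between 63.6 and 118 CPM in I30 controls (median 85.5) and between 43.6 and 63.6 CPM in exposed libraries (median 56.4), and between 70.3 and 105 CPM in I32 controls (median 83.4) against 47.6 to 82.2 CPM (median 66.3). In I13 it was not lower, at 88.8, 97.9, 82.9 and 84.9 CPM in controls and 81.7, 100, 90.7 and 96.6 CPM in exposed libraries. *sebox*, a homeobox gene of the same family that is also expressed in mesendoderm, followed *mixl1* in sign in each batch and was at -0.54 ± 0.13 (adjusted p = 0.0323). With *CYP26A1*, which the list also holds, 1 of 30 genes was higher and 1 lower (6.67%, background 0.666%), and the median was -0.04. The ligand genes *ndr1* (-0.24 ± 0.19) and *ndr2* (0.03 ± 0.07) and the endoderm factor *FOXA2* (0.19 ± 0.06, adjusted p = 0.134) did not pass. Over the 31 libraries 7 genes of the list were higher (background 6.70%), *FOXA2* among them (0.28), and 2 lower (background 5.67%).

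In the other patterning pathways 1 or no gene per direction was called. The Wnt effector gene *TCF7* was higher by 0.35 ± 0.09 (adjusted p = 0.0459), 1 of 37 genes of the Wnt list (2.7%, background 0.423%, median 0.03). The call was kept in 12 of 39 fits without 1 library and lost with RLE size factors or unstranded counts, and the 31 libraries gave 7 higher and 1 lower gene of the list. *SFRP1*, a secreted Wnt antagonist outside the list, rose by 0.31 ± 0.06 (adjusted p = 0.0141). The receptor gene *FGFR1* (ENSDARG00000011190) was higher by 0.26 ± 0.06 (adjusted p = 0.0306), 1 of 23 genes of the Fgf list (4.35%, background 0.423%, median 0.01). Another gene of the list with this symbol (ENSDARG00000011027) did not pass over all libraries. Over the 31 libraries it was lower (edgeR, -0.21, adjusted p = 0.0466), while ENSDARG00000011190 was at 0.34. No gene of 38 in the Bmp list passed, where *msx1a*, a target of Bmp, had the smallest p (0.42 ± 0.11, adjusted p = 0.0565) and 29 values were positive (median 0.09). DESeq2 called 2 of the Bmp list higher (background 223 of 10217 genes), and the 31 libraries gave 12 higher and 2 lower (background 6.70% and 5.67%). Of 24 Notch pathway genes 1 was higher and 1 lower (8.33%, background 0.666%). The proneural gene *ascl1b* was higher (0.79 ± 0.20, adjusted p = 0.0461), at under 1 CPM on average and not testable in every batch. The segmentation clock gene *her1* was lower (-0.25 ± 0.06, adjusted p = 0.045), with a positive sign in I14. With RLE size factors no gene of the Notch list was called, and DESeq2 and thinned counts each called 1 lower and none higher. The anterior and endoderm lists (20 and 21 genes) held no called gene. At an unadjusted p under 0.05 they had 5 and 6 genes (background 15.3%), and DESeq2 called 3 and 1 (background 450 of 10217 genes). Over the 31 libraries 4 anterior genes were higher and 2 lower, and 7 endoderm genes were higher and 1 lower (background 6.70% and 5.67%). In both lists *OTX2* had the smallest p over all libraries (0.34 ± 0.09, adjusted p = 0.0732), and its value came from I30, where it was 1.01, against 0.14, -0.08 and 0.06 from the lowest to the third dose rate. The keratin gene *krt17* (0.27 ± 0.07, adjusted p = 0.0661) led the 28 genes of the enveloping layer, none of which passed. At an unadjusted p under 0.05, 8 were higher (background 8.31%). DESeq2 called 2 (background 223 of 10217 genes) and the 31 libraries gave 10 (background 6.70%), all higher.

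The genes that fell did not gather in any of the lists. *CLINT1* (ENSDARG00000089914) encodes a clathrin interactor of vesicle transport and was at -0.46 ± 0.09 (adjusted p = 0.0074). Its level was 4.49, 4.8, 5.45 and 5.04 CPM in I14 controls and 3.04, 4.43 and 4.01 CPM in exposed libraries, and 9.27, 7.96, 6.87 and 7.46 CPM in I13 controls against 6.2, 5.85, 7.07 and 8.22 CPM. It was between 6.5 and 8.96 CPM in I32 controls (median 7.74) against 4.05 to 7.21 CPM (median 5.78), and between 6.22 and 12.1 CPM in I30 controls (median 8.79) against 3.9 to 6.42 CPM (median 5.37). The groups were separated in I14 alone, and 18 of 19 exposed libraries were under the control mean. The other gene with this symbol (ENSDARG00000025535), counted at a higher level, was at -0.05 ± 0.05 and did not pass. Read pairs that fit both copies are left out of either count, so that the level of each is uncertain.

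*NEK7*, a kinase that acts in mitosis, was lower at -0.37 ± 0.07 (adjusted p = 0.0074). It was at 46.8, 68.6, 78.7 and 74 CPM in I14 controls against 45.1, 57.2 and 41 CPM, and at 38.7, 33.5, 36.5 and 38.2 CPM in I13 controls against 29.4, 31.6, 30.7 and 39.9 CPM. In I32 the controls were between 52.3 and 62.6 CPM (median 59.6) and the exposed libraries between 33 and 50.8 CPM (median 37.6), without overlap. In I30 the controls ranged from 38.3 to 56.1 CPM (median 49.4) and the exposed libraries from 35.3 to 45.5 CPM (median 42.8).

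*TAX1BP1* (ENSDARG00000098288, of the tested genes with this symbol the only one that passed), an autophagy receptor, was lower at -0.35 ± 0.07 (adjusted p = 0.0172). Its level was 11.1, 13.7, 13.6 and 15.2 CPM in I14 controls against 10.1, 11.2 and 8.12 CPM, and 16.9, 17.4, 14.3 and 14.8 CPM in I13 controls against 13.8, 12.8, 11.8 and 18.1 CPM. In I32 the ranges were 18.8 to 26.5 CPM (median 23) and 14.5 to 26.9 CPM (median 17.5), and in I30 they were 20.8 to 28.1 CPM (median 24.8) and 13.9 to 21 CPM (median 17.8). The groups overlapped in every batch, in I30 by less than 1 CPM, and 17 of 19 exposed libraries were under the control mean.

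Several of the remaining lower genes act in membrane traffic, a grouping made after the values were seen. The SNARE gene *stx10* was at -0.49 ± 0.12 (adjusted p = 0.036), with -1.04 in I14 and -0.14 in I13. *sec23a* (-0.29 ± 0.06, adjusted p = 0.0249), a coat subunit of vesicles that leave the endoplasmic reticulum, and *LMAN1* (-0.26 ± 0.06, adjusted p = 0.0262), a cargo receptor of the same vesicles, were lower in all batches. The paralogue *SEC23B* was higher (0.21 ± 0.05, adjusted p = 0.036), as was *mctp2a* (0.22 ± 0.05, adjusted p = 0.0306) beside its lower paralogue *mctp2b* (-0.35 ± 0.09, adjusted p = 0.0471). *EXOC5*, a subunit of the exocyst, was at -0.22 ± 0.05 (adjusted p = 0.045).

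Other genes that fell were the chromatin remodelling subunit *BCL7B* (ENSDARG00000111877, -0.37), the lysosomal nuclease *dnase2* (-0.36), the uncharacterised *si:ch211-188c16.1* (-0.35), the glycosyltransferase *MGAT4B* (-0.35), the phosphatase *CTDSPL2* (-0.33) and *C2CD5* (-0.22), all common genes with an adjusted p between 0.0184 and 0.036. Of the common genes not yet given, those with the largest rises were *avpr2l* (0.59 ± 0.13), related to vasopressin receptors, *ENSDARG00000098478* (0.53 ± 0.14), *fkbp11* (0.47 ± 0.10), a prolyl isomerase of the endoplasmic reticulum, and the Mediator subunit *MED19* (ENSDARG00000009472, 0.43 ± 0.09). The mitochondrial protein gene *NIPSNAP1* rose by 0.28 ± 0.05 (adjusted p = 0.0084), and its groups were separated in I14, at 71.8, 71.6, 59.9 and 70.9 CPM in controls and 95, 84.5 and 94.1 CPM in exposed libraries. The same held in I13, where it was 48.9, 47.6, 54.3 and 52.3 CPM in controls and 74.5, 67.6, 64.6 and 60.6 CPM in exposed libraries. In I32 and I30 its groups overlapped. *GREB1* was higher by 0.33 ± 0.06 (adjusted p = 0.0141).

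The lists of the DNA damage response held 1 or no called gene each. As only 0.666% of all genes were called, lists of this size cannot show that these pathways were unchanged. None of 35 genes of double strand break repair and checkpoints passed (edgeR, background 0.666%). At an unadjusted p under 0.05, 2 were higher and 3 lower (background 15.3% in either direction). The gene *rnf8*, a ubiquitin ligase recruited to breaks, came closest (0.21 ± 0.06, adjusted p = 0.0963). DESeq2 called 1 higher and 1 lower (background 450 of 10217 genes), and the 31 libraries gave 2 and 2, beside 12.4% of all genes called there. Of 34 genes of excision and mismatch repair 1 was lower (2.94%, background 0.243%), the mismatch recognition gene *MSH3* (-0.35 ± 0.09, adjusted p = 0.0472). *MSH3* was at 6.14, 10.3, 9.56 and 7.74 CPM in I14 controls against 4.95, 6.57 and 6.29 CPM, and at 9.65, 7.32, 6.81 and 7.52 CPM in I13 controls against 6.3, 6.37, 5.22 and 10.3 CPM. It ranged from 8.17 to 11.9 CPM (median 10.2) in I32 controls against 5.03 to 12.2 CPM (median 7.59), and from 9.61 to 12.3 CPM (median 10.6) in I30 controls against 6.55 to 9.12 CPM (median 8.26). It was separated in I30 only, and 9 of the 39 fits without 1 library kept the call.

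Of 28 apoptosis genes 1 was higher (3.57%, background 0.423%), the survivin gene *BIRC5* (0.30 ± 0.07, adjusted p = 0.0405), which acts against apoptosis and in chromosome segregation. Its within-batch values were 0.37, 0.22, 0.56 and 0.00 from the lowest to the highest dose rate, so that it was at the same level in both groups at 5 mGy/h. None of 55 genes of the cell cycle and replication licensing passed (9 higher and 3 lower at an unadjusted p under 0.05), nor did any of 35 antioxidant genes (1 and 6). The background was 0.666% for calls and 15.3% at that unadjusted p. DESeq2 called 0 of either list as well. *plk1*, a mitotic kinase (0.15 ± 0.05, adjusted p = 0.158), and *GCLC*, which catalyses the first step of glutathione synthesis (-0.18 ± 0.06, adjusted p = 0.158), had the smallest p of these lists, and the cell cycle inhibitor gene *cdkn1a* was at -0.36 ± 0.14 (adjusted p = 0.194). The 31 libraries gave 10 higher and 2 lower genes of the cell cycle list and 5 higher and 3 lower antioxidant genes, *GCLC* among the lower (-0.24, adjusted p = 0.0206). Of all genes 6.70% were higher and 5.67% lower there. The small heat shock protein gene *HSPB1* was the called gene among 32 of heat shock (0.27 ± 0.07, adjusted p = 0.0499, 3.12%, background 0.423%), and 9 of 39 fits without 1 library kept it.

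Genes of protein synthesis and respiration had mostly positive values but few called genes over all libraries. Of 80 genes of cytosolic ribosomal proteins 78 were positive and 69 higher at an unadjusted p under 0.05 (background 8.31%), yet none passed the adjusted threshold (DESeq2 called 7), and *RPL7* came closest (0.29 ± 0.08, adjusted p = 0.0559). The median of the list was 0.21 over all libraries and 0.39, 0.04, -0.05 and 0.45 within batches from the lowest to the highest dose rate, so that I13 and I32 did not share the shift. Over the 31 libraries 72 of the 80 genes were higher (background 6.70%). Nuclear subunits of the respiratory complexes (1 of 87 called, background 0.666%, the inhibitor of ATP synthase *atp5if1a* at 0.28 ± 0.07, median 0.17), proteasome subunits (1 of 53, *PSMA6* (ENSDARG00000013966) at 0.26 ± 0.06, median 0.12) and translation factors (1 of 37, *EIF3K* at 0.24 ± 0.06, median 0.09) likewise had a higher median in I30 than in I32. Over the 31 libraries 55, 24 and 13 genes of these lists were higher, as were 21 genes of mitochondrial ribosomal proteins, and none was lower. Mitochondrial ribosomal proteins (74 tested, *MRPL12* 0.23 ± 0.06, adjusted p = 0.0755, 17 higher at an unadjusted p under 0.05, 2 by DESeq2) held no called gene, nor did the 13 genes of the mitochondrial genome (*MT-CO1* -0.17 ± 0.05, adjusted p = 0.109, 3 lower at an unadjusted p under 0.05, 1 by DESeq2). These genes are correlated within a library, and the number that moves with them is therefore no number of independent changes.

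**Figure D5:**
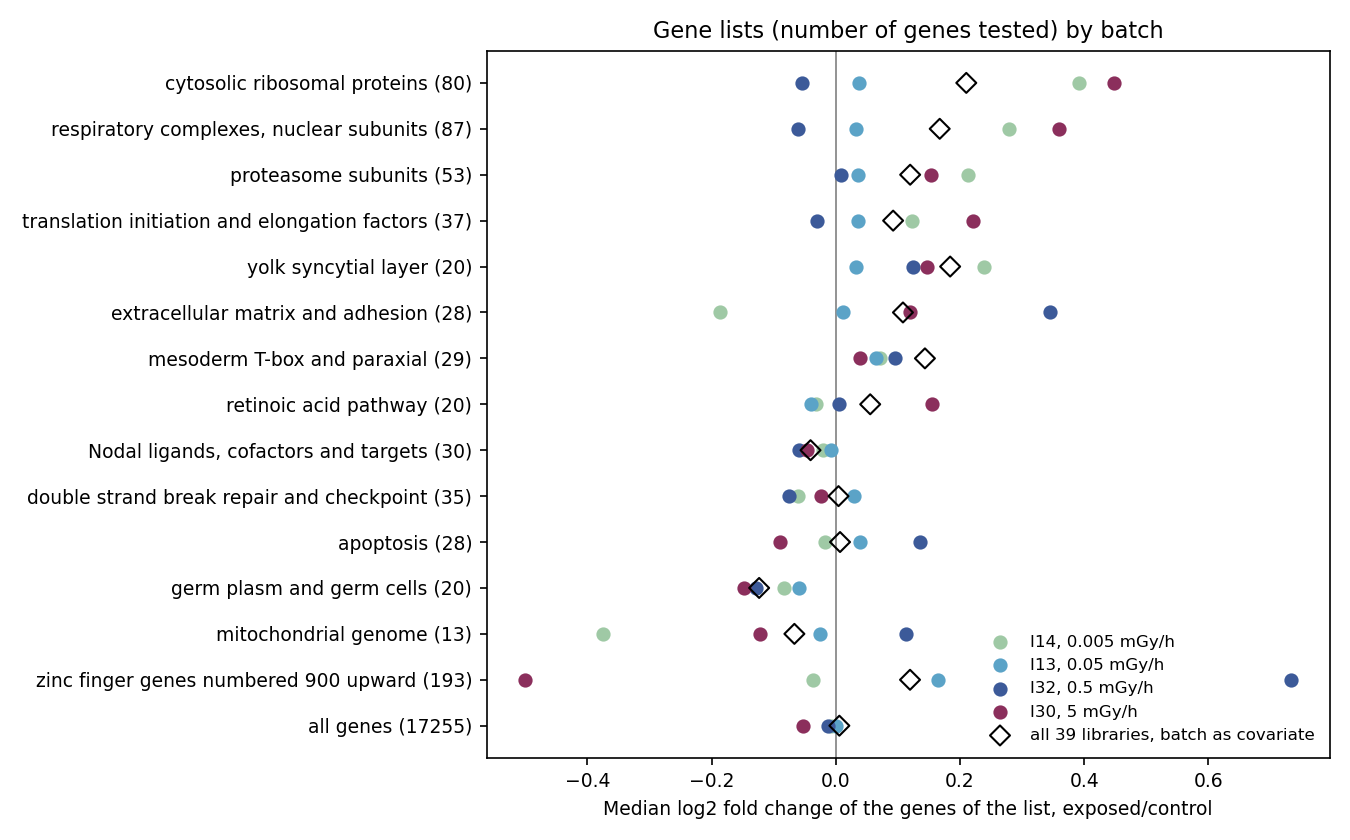
Median log2 fold change (exposed over control) of the tested genes of 14 lists and of all genes, within each batch (filled points, with the dose rate of its exposed libraries) and over all 39 libraries with batch as a covariate (open diamonds). Numbers in brackets are genes tested over all libraries, and a batch median covers the fewer genes tested there. Cytosolic ribosomal proteins lie at 0.39 and 0.45 in I14 and I30 and near 0 in the other batches, while zinc finger genes lie at 0.73 in I32 and -0.50 in I30.

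Zinc finger genes with high numbers in their symbols were an example of an effect that was not common. Their within-batch median was 0.73 in I32 and -0.50 in I30, with -0.04 in I14 and 0.16 in I13, and none of 193 genes tested passed the common test, where 6 were higher at an unadjusted p under 0.05 and DESeq2 called 0. *znf1091* had the smallest p (0.64 ± 0.27, adjusted p = 0.237). The 97 zinc finger genes with lower numbers had a median of 0.01 and no called gene (7 higher and 4 lower at an unadjusted p under 0.05, 2 lower by DESeq2, *ZNF622* -0.19 ± 0.05, adjusted p = 0.0619), and their share of positive values was 51.5% against 51.4% of all genes.

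Germ plasm genes had negative medians in every batch without a call (4 lower at an unadjusted p under 0.05, 2 by DESeq2). Of 20 tested genes 2 had a positive value, the median was -0.12, and the within-batch medians were -0.08, -0.06, -0.13 and -0.15 from the lowest to the highest dose rate. The summed level was above the mean of the batch controls in 3 of 19 exposed libraries, against 13 of 19 for the sum of all genes. *gra*, a germ plasm RNA, came closest to the threshold (-0.27 ± 0.07, adjusted p = 0.0565), and *buc*, which organises the germ plasm, was at -0.53 ± 0.24 (adjusted p = 0.29). The defining germ cell genes *DDX4* and *NANOS3* were at -0.08 ± 0.06 and 0.07 ± 0.07. Of the 20 genes 5 were lower (background 5.67%) and none higher over the 31 libraries. Maternal oocyte transcripts in general were evenly split (37 tested, 19 positive, median 0.00, 3 at an unadjusted p under 0.05, 0 by DESeq2), and *tuba8l2* had the smallest p (0.30 ± 0.10, adjusted p = 0.12).

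The remaining lists held no called gene, with 1 histone gene called higher and 1 glycolysis gene lower by DESeq2 and between 2 and 5 genes of each list at an unadjusted p under 0.05. Histone genes had a median of 0.15 (32 tested, *h2az2b* 0.17 ± 0.05, adjusted p = 0.108), which was 0.06 without I13 exposed replicate 3, the library with 35.72% of multiply mapped pairs, and enzymes of histone and DNA modification one of 0.02 (47 tested, *SIRT6* 0.15 ± 0.05, adjusted p = 0.157). Actin and muscle genes were at 0.06 (27 tested, *actn4* -0.10 ± 0.04, adjusted p = 0.167), but at -0.04 with unstranded counts and between -0.01 and 0.07 without 1 library, and genes of glycolysis and hypoxia at -0.03 (25 tested, *EGLN3* -0.40 ± 0.13, adjusted p = 0.114). Of the markers of later stages only 5 were high enough to be tested, and *LCP1* had the smallest p (0.18 ± 0.07, adjusted p = 0.182). Of all 115 called genes 94 were in no list.

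A selection of genes that the study named for its expression data was also looked up, and the following did not pass the common test. The text of the study named *FGF4*, *twist1a* and *blf* for single dose rates, not for an effect shared by all. It reported *twist1a* and *blf* at a dose rate above those of these libraries, and *FGF4* as lower at 5 mGy/h. *GATA2* was at 0.16 ± 0.06 (adjusted p = 0.173), *drll.1* at 0.18 ± 0.17, *galnt6* at -0.09 ± 0.09, *FGF4* at -0.48 ± 0.19 (adjusted p = 0.21), *twist1a* at 0.78 ± 0.28 (adjusted p = 0.158) and *blf* at -0.05 ± 0.15. For *blf* the within-batch values were 0.31, 0.16 and 0.50 at the 3 lower dose rates and -0.98 at 5 mGy/h, so that its average over the batches describes none of them. *FGF4* was at -1.40 in I30 and near 0 in I32 (0.01).

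Whether the exposure effect differed between batches was tested with the interaction of batch and exposure. It passed for 382 of 17255 genes (2.21%, 1332 genes over the 31 libraries), and 10 of the 115 called genes were among them. The clearest was the growth factor gene *MDK* (ENSDARG00000020708), called at 0.56 ± 0.14 (adjusted p = 0.045). It was between 2.24 and 4.81 CPM in I30 controls (median 3.1) and between 7.87 and 11.9 CPM in I30 exposed libraries (median 10.2), but at 2.51, 1.86, 3.75 and 2.98 CPM in I13 controls and 3.6, 2.44, 2.22 and 1.64 CPM in I13 exposed libraries. Its within-batch log2 fold changes were 0.15, -0.15, 0.28 and 1.56 from the lowest to the highest dose rate (interaction adjusted p = 0.00182), and the call was kept in 13 of 39 fits without 1 library. *CYP26A1*, *CD36*, *CLINT1* and *NEK7* had interaction adjusted p of 0.0924, 0.418, 0.447 and 0.315, which does not show that their effects were equal.

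Some calls rest on few counts. The structural RNA genes *5_8S_rRNA* and *U3* were called higher, but they had 96 and 139 counts in all exposed libraries together, of which 39 were in I13 exposed replicate 3, the library with the high share of multiply mapped pairs, and 52 in I32 exposed replicate 5. The control libraries together had 9 and 11 counts. *PAX8* (281 counts in exposed and 154 in control libraries, adjusted p = 0.0499) and *MYB* (361 and 192, adjusted p = 0.045), a pair of transcription factor genes, were low as well. None of these 4 genes was tested in every batch, and none is counted as a common gene.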

How the data were processed

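RNA of pools of whole zebrafish embryos was sequenced as stranded, oligo(dT)-selected paired-end libraries. The authors trimmed adapters with TrimGalore, mapped the reads to GRCz11 with STAR and deposited its counts of uniquely mapped read pairs per Ensembl gene, without normalisation. Antisense-to-read-1 counts were taken, as the sense column held 2.089% of counts or less. Between 89.53% and 94.26% of uniquely mapped pairs fell on genes, and rows for unmapped, multiply mapped or unassigned pairs were left out. Of 32057 genes, 28988 had a symbol. No coordinates or sequences are given, because no annotation of this build was used here.

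Exposure was tested with edgeR 4.0.16 in R 4.3.3 (TMM, genes kept from 10 counts in enough libraries and 15 in total, quasi-likelihood F-test, two-sided, Benjamini-Hochberg over all genes tested) with batch and exposure as terms. The spread is that between pools, whose independence beyond the pool is not stated. According to the study the eggs of all spawns were combined, so that pools of a batch can share parents. The units of the test are pools and not the 4 batches, and both numbers limit the precision. Errors are SE of the log2 fold change, computed from the F statistic. CPM per library use the normalised library sizes. Within-batch fits, an interaction fit and fits with single libraries or batches left out, DESeq2 1.42.0, RLE size factors, other filters, unstranded counts, thinned counts, equal batch weights and the replicate number as a block were alternatives. A robust estimate of the spread was added after the data were seen. The fits were tested on simulated data. There the common test recovered 44% of genes changed by a fold of 1.3 and 82% of those changed by 2. The interaction test recovered 45% of genes changed by a fold of 2 in 1 batch. Small changes can thus be missed by both tests. Figures were drawn with matplotlib 3.10.9.

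Members and the 34 gene lists were chosen with earlier results of these data known, and the patterns for ribosomal protein and zinc finger genes were corrected after the files were read. The results of 1 list and of some genes are not reported here. Named by rule were the 10 highest and 10 lowest common genes by log2 fold change, the 5 with the smallest p in each direction, the 3 called genes with the smallest interaction p, the leading genes of each list (the called members with the smallest p and the largest change, or else the smallest p) and a selection of genes that the study names. The study's bmp2b could not be matched to a single gene. Other named genes were chosen after their values were seen. No pair of replicates was identical (chi-square per degree of freedom at least 4.12 over 81 pairs).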

Additional observations from a re-analysis of the deposited data

Results flagged for a closer look

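Among 70 named genes, 490 sets of 4 to 6 libraries of a group were screened for a library far from its group by Dixon's criterion, and in 24 sets (4.90%) a library stood apart, close to the 1 in 20 that chance gives. I14 control replicate 1 did so most often, being low for *MGAT4B* (23.9 CPM) and high for *rnf8* (44.1), *krt17* (275), *RPL7* (1300) and *znf1091* (0.218). I30 exposed replicate 1 was high for *ENSDARG00000098478* (3.28 CPM) and *PSMA6* (40.4) and low for *BCL7B* (15.5) and *MT-CO1* (7820). I13 exposed replicate 1 was high for *MED19* (3.16 CPM) and *blf* (74.3) and low for *CRABP2* (429). I13 exposed replicate 4 was high for *dnase2* (25.2 CPM) and *GCLC* (92.9) and low for *SFRP1* (45.8). I32 exposed replicate 3, which the study removed, was high for *dnase2* (22.7 CPM) and *TAX1BP1* (26.9), above the other exposed libraries in a pair of genes that fell. I30 control replicate 2, also removed, was high for *HSPB1* (2920 CPM) and *RPL7* (808). Single libraries were I32 exposed replicate 4 for *avpr2l* (2.39 CPM), I32 exposed replicate 5 for *twist1a* (0.169, low), I32 exposed replicate 6 for *ALDH1A2* (77), I14 control replicate 3 for *NIPSNAP1* (59.9, low) and I32 control replicate 2 for *rnf8* (26.8, low).

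The exposure effect of 11 named genes differed between the batches in the interaction test (edgeR, adjusted p). These were *OTX2* (0.00149), *MDK* (0.00182), *tm6sf2a* (0.0269), *SFRP1* (0.0287), *blf* (0.0296), *MT-CO1* (0.0427), *fkbp11* (0.0449), *msx1a* (0.0449), *gtse1* (0.0476), *LCP1* (0.0476) and *CRABP2* (0.0487). Of these *MDK*, *tm6sf2a*, *SFRP1* and *fkbp11* passed the common test. As each dose rate was run in 1 batch, a difference between dose rates cannot be told apart from one between batches.

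In the rows that no comparison used, 35.72% of the read pairs of I13 exposed replicate 3 mapped to several places, more than in any of its controls (15.42% to 18.12%). Without this library 78 genes were called, 76 of them among the 115.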

How the results depend on the processing

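All 88 common genes kept their direction in every alternative that gave them a value. This is no separate result, because they were chosen by their direction in these libraries. The number of calls moved with most settings. Against 73 higher and 42 lower genes, the 31 libraries gave 1164 and 985, DESeq2 223 and 227, no filter on low counts 40 and 17, the threshold of the study 1 and 0, omission of batch I13 160 and 98, of I14 24 and 10 and of I30 0 and 0. Equal weights of the batches gave 67 lower genes. The other settings stayed within 1.5 times the counts. The interaction passed for 1332 genes over the 31 libraries against 382. Within batches, 0, 1, 1120 and 1366 genes passed in I14, I13, I32 and I30, and DESeq2 gave 136, 2, 1851 and 2237. The 31 libraries gave 3, 1752 and 3690 in I13, I32 and I30. The cause was not tested.

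Omission of 1 library gave 18 to 191 higher and 8 to 180 lower genes. In 20 of 39 fits the total fell by over 1.5 times, most with I30 control replicate 4 (26), I14 exposed replicate 2 (27), I32 exposed replicate 6 (27) and I30 control replicate 3 (32) left out. It rose by as much without I32 exposed replicate 3 (371), I13 exposed replicate 4 (330), I13 control replicate 3 (251), I14 control replicate 1 (243) and I13 control replicate 4 (182).

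Whether replicate numbers pair exposed and control libraries was not settled by their correlations, which were weak. Of 19 same-numbered pairs 4 had a correlation of deviations over 0.1 (mean 0.0357, range -0.216 to 0.205). The mean for pairs with other numbers was -0.00825, and 8 exposed libraries correlated best with their own number. With the number as a replicate block 51 genes were higher and 37 lower, 61 of them among the 115, and 459, 1995 and 626 genes passed within I14, I32 and I30.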
